A study of Mus musculus with 35 samples.

Results

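The 5 dopamine receptor genes of the mouse were followed in striatal RNAseq of 35 female B6 mice: *Drd1a* (current symbol *Drd1*), *Drd2*, *Drd3*, *Drd4* and *Drd5*. They were chosen by name among the 22099 genes listed, and 4 of the 5 had a mean of at least 0.3 CPM, counts scaled to library size. *Drd4* did not reach that level and was left out of the test by the filter on low counts. The mice carried either 2 wild-type alleles (*Htt* +/+) or 1 knock-in allele with an expanded CAG tract at the endogenous *Htt* locus and 1 wild-type allele (*Htt* Q111/+), on a congenic C57BL/6J background. Within each genotype they received weekly intraperitoneal saline (4 µL/g), an off-target control antisense oligonucleotide (control ASO) or an ASO against both *Htt* alleles (*Htt* ASO), both ASOs at 50 mg/kg. Dosing began at 2 months, and the mice were killed at 10 months, aged 299 to 304 days. Groups held 6 mice each, except *Htt* +/+ mice on control ASO, of which there were 5. RNA came from the right hemistriatum in all mice but 1, an *Htt* +/+ mouse on *Htt* ASO whose sample was the left. The Q111 allele is present in every cell, all mice were female, and the ASOs were given peripherally.

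Dopamine receptors are G protein-coupled receptors that fall into D1-like receptors (*Drd1a*, *Drd5*), which raise cyclic AMP through stimulatory G proteins, and D2-like receptors (*Drd2*, *Drd3*, *Drd4*), which lower it through inhibitory G proteins. In the striatum *Drd1a* marks the medium spiny neurons of the direct pathway and *Drd2* those of the indirect pathway. *Drd2* is also made by cholinergic interneurons, which use *Drd5* as well, and *Drd3* is known mainly from the ventral striatum. Medium spiny neurons are the cells most affected in Huntington's disease.

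The 2 receptors that define the pathways are shown by the sequence before their start sites, since their transcripts moved together between genotypes. RefSeq places *Drd1* on chromosome 13, *Drd2* on 9, *Drd3* on 16, *Drd4* on 7 and *Drd5* on 5 of GRCm38.p6. All 5 genes had at least 1 start site in the RefSeq promoter table, with 2 for *Drd1*, of which the more upstream one is printed. The windows hold 250 bases before the start site, 5′ to 3′ on the strand of the gene, with the letters GGGCGG (the GC box) or their reverse complement in capitals.
*Drd1*, chr13:54055659-54055908, minus strand: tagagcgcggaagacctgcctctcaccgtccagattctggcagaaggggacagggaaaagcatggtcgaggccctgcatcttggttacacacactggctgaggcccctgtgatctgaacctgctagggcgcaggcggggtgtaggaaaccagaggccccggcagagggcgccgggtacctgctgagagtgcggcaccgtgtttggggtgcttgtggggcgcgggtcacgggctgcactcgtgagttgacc
*Drd2*, chr9:49340153-49340402, plus strand: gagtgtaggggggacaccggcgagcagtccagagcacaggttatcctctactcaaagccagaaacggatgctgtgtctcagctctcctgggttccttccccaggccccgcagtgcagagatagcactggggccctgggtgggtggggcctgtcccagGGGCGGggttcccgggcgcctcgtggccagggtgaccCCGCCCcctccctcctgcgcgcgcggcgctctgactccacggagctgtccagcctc
The *Drd2* window held 2 GC boxes and the printed *Drd1* window none, whereas the window of the other *Drd1* start site held 1. Of 32851 RefSeq windows of this length, 32.7% held at least 1. GC content was 64% before the printed *Drd1* start site, 60.8% before the other, 68.8% before *Drd2*, 71.2% before *Drd5* and 39.2% before *Drd3*, against a median of 52.4% over all windows. The *Drd5* window held 2 GC boxes, the *Drd4* window 3 and the *Drd3* window none. Neither the letters TATAAA (12.4% of all windows) nor TGACG (17.8%), searched on both strands, occurred in the windows of any of the 5 genes.

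Depth was even across mice, with 32200158 to 38641924 counts per mouse and TMM scaling factors from 0.971 to 1.03. The targeted transcript, *Htt* (listed under its older symbol *Hdh*), was lower in *Htt* Q111/+ mice (log2 fold change −0.23, adjusted p = 0.0010, limma after voom). It did not differ detectably between *Htt* ASO and control ASO in this tissue (−0.077, 95% confidence interval −0.22 to 0.062, adjusted p = 0.967). Markers of medium spiny neurons were abundant in every mouse, from 2811 to 4595.5 CPM summed over 5 genes. One *Htt* +/+ mouse on control ASO stood apart, with 1526 CPM of choroid plexus markers summed (*Ttr*, *Kl* and *Folr1*), where the next highest mouse had 119. The sample titles carry an L number whose meaning is not stated, and 1 of the 6 L numbers held *Htt* Q111/+ mice alone.

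Levels of the 5 receptors spanned more than 3 orders of magnitude. Per kilobase of the longest GENCODE transcript, *Drd1a* was 85.3 ± 4.53 CPM and *Drd2* 69.6 ± 3.31 CPM (SD, n = 17) in *Htt* +/+ mice. On the same scale and in the same mice, *Drd5* was 0.831 ± 0.138, *Drd3* 0.703 ± 0.166 and *Drd4* 0.0252 ± 0.0164. The order was the same in *Htt* Q111/+ mice, at 60.8 ± 3.71 for *Drd1a*, 49.0 ± 3.11 for *Drd2*, 0.776 ± 0.108 for *Drd5*, 0.773 ± 0.109 for *Drd3* and 0.0183 ± 0.0150 for *Drd4* (SD, n = 18). *Drd1a* lay above *Drd2* by more than the spread between mice in either genotype, while *Drd5* and *Drd3* did not differ beyond their spread. *Drd1a* averaged 9194 counts per mouse and varied by 5.72% within groups, and *Drd2* averaged 5309 counts and varied by 5.36%. *Drd5* averaged 89.6 counts and varied by 14.8%, against 10.6% from counting error alone. *Drd3* averaged 44.9 counts and varied by 19.7%, against 14.9% from counting.

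*Drd4* was listed with 75 counts over all 35 mice, from 0 to 6 per mouse, and 6 mice had none. *Htt* +/+ mice held 42 counts, or 0.0697 CPM (exact Poisson interval 0.0503 to 0.0942), and *Htt* Q111/+ mice held 33, or 0.0517 CPM (0.0356 to 0.0726). These intervals cover counting error only, and they overlap, so a difference was not detectable at this depth. Fitted without any filter, the log2 difference between genotypes was −0.46 (95% confidence interval −1.20 to 0.29, adjusted p = 0.390, limma).

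Steady state levels of both pathway-defining receptors were lower in *Htt* Q111/+ mice, by nearly the same factor, whereas *Drd3* and *Drd5* did not pass the test. *Drd1a*, the D1 receptor of the direct pathway, fell to 71.2% of its *Htt* +/+ level, and *Drd2*, the D2 receptor of the indirect pathway, to 70.5%. Over all genes the same comparison called 39.8% of 17639 tested genes in either direction, 18% lower and 21.8% higher, so that a call by itself was common. The 2 receptors ranked 54th (*Drd1a*) and 41st (*Drd2*) by p, and 2.57% and 2.44% of tested genes had a more negative fold change. Calls were made by limma after voom over all 35 mice, with Benjamini-Hochberg adjustment over all tested genes and a threshold of 0.05.

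On saline, *Drd1a* ranged from 277 to 318 CPM in *Htt* +/+ mice, with a median of 295, and from 198 to 239 in *Htt* Q111/+ mice, with a median of 213. On control ASO, the 5 *Htt* +/+ mice had 282.5, 292.3, 311.9, 324.3 and 325.0 CPM, and the *Htt* Q111/+ mice ranged from 200.3 to 237, with a median of 222. On *Htt* ASO, *Htt* +/+ mice ranged from 296 to 334 CPM (median 309) and *Htt* Q111/+ mice from 203 to 233 (median 219.5). Every *Htt* Q111/+ mouse lay below every *Htt* +/+ mouse, whichever treatment they had received. Among genes of the lists below, *Adcy5*, *Rgs9*, *Rgs4*, *Gpr6* and *Penk1*, for example, also separated fully, while others overlapped. The share of all tested genes that separate in this way was not computed. Means were 305 ± 16.2 CPM (SD, n = 17) and 217 ± 13.3 CPM (SD, n = 18), a log2 fold change of −0.49 ± 0.028 (standard error) with a 95% confidence interval of −0.55 to −0.43 (limma, adjusted p = 5.86e-16).

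*Drd2* ranged on saline from 167 to 189 CPM in *Htt* +/+ mice (median 175) and from 111.3 to 135 in *Htt* Q111/+ mice (median 120.1). On control ASO, the 5 *Htt* +/+ mice had 160.7, 165.2, 173.5, 177.3 and 182.3 CPM, against 118 to 134 (median 128) in *Htt* Q111/+ mice. On *Htt* ASO the *Htt* +/+ mice ranged from 170.3 to 187 CPM (median 184) and the *Htt* Q111/+ mice from 113 to 135 (median 126). Again no *Htt* Q111/+ mouse reached the level of any *Htt* +/+ mouse. Means were 177 ± 8.44 CPM (SD, n = 17) and 125 ± 7.92 CPM (SD, n = 18), for a log2 fold change of −0.50 ± 0.027 (standard error) and a 95% confidence interval of −0.56 to −0.45 (limma, adjusted p = 1.43e-16).

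*Drd5*, the second D1-like receptor, overlapped between genotypes. On saline it ranged from 1.99 to 3.22 CPM in *Htt* +/+ mice (median 2.34) and from 2.09 to 2.81 in *Htt* Q111/+ mice (median 2.40). On control ASO the 5 *Htt* +/+ mice had 2.463, 2.826, 2.894, 2.971 and 3.601 CPM, and *Htt* Q111/+ mice ranged from 1.72 to 2.68 (median 2.54). On *Htt* ASO the ranges were 2.00 to 3.02 CPM (median 2.54) and 2.18 to 3.24 CPM (median 2.45). Over all treatments the log2 fold change was −0.11 (95% confidence interval −0.25 to 0.042, adjusted p = 0.260, limma).

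*Drd3*, a D2-like receptor, likewise overlapped. On saline it ranged from 0.954 to 1.60 CPM in *Htt* +/+ mice (median 1.103) and from 1.26 to 1.64 in *Htt* Q111/+ mice (median 1.40). On control ASO the *Htt* +/+ mice had 0.824, 1.18, 1.25, 1.34 and 1.42 CPM, and *Htt* Q111/+ mice ranged from 0.930 to 1.42 (median 1.37). On *Htt* ASO the ranges were 0.761 to 1.62 CPM (median 1.34) and 0.952 to 1.503 CPM (median 1.29). The log2 fold change over all treatments was 0.15 (95% confidence interval −0.058 to 0.36, adjusted p = 0.256, limma), and the interval reaches from 96.1% to 128% of the *Htt* +/+ level.

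**Figure D1:**
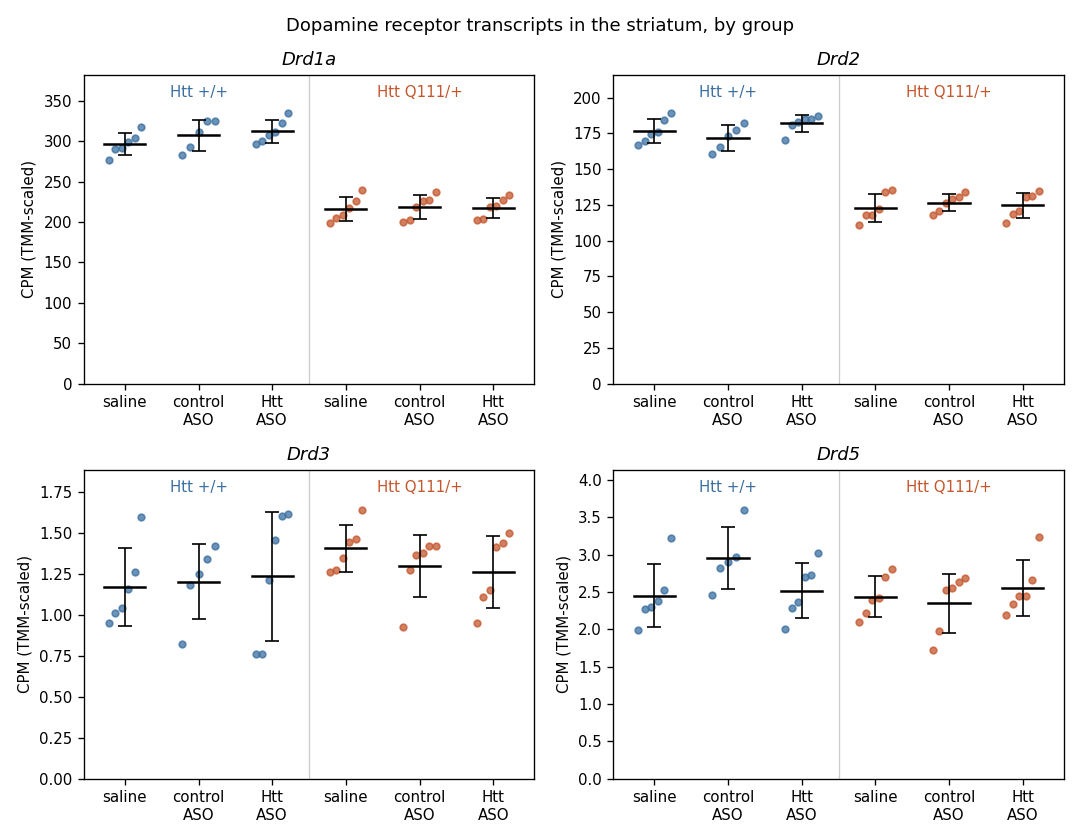
CPM (TMM-scaled) of *Drd1a*, *Drd2*, *Drd3* and *Drd5* in each mouse (points) by genotype and treatment, with the group mean (line) and SD (bars) and the vertical axes starting at 0. For *Drd1a* and *Drd2* all *Htt* Q111/+ mice (at most 239 and 135 CPM) lie below all *Htt* +/+ mice (at least 277 and 161 CPM), while for *Drd3* and *Drd5* the genotypes overlap.

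The genotype difference of both major receptors was present under each treatment. For *Drd1a* the log2 fold change was −0.46 on saline (95% confidence interval −0.56 to −0.36), −0.49 on control ASO (−0.59 to −0.39) and −0.52 on *Htt* ASO (−0.62 to −0.42). For *Drd2* it was −0.52 on saline (−0.62 to −0.43), −0.44 on control ASO (−0.54 to −0.34) and −0.55 on *Htt* ASO (−0.64 to −0.45). Their adjusted p-values (limma) were 6.79e-09, 6.58e-09 and 3.75e-10 for *Drd1a*, and 3.45e-10, 3.05e-08 and 7.29e-11 for *Drd2*, in the same order of treatments. Within treatments 17.4% (saline), 18.5% (control ASO) and 21.2% (*Htt* ASO) of all tested genes were called. *Drd3* was not called under any treatment, at 0.27, 0.11 and 0.068 in the same order. Within each of the 5 L numbers that held both genotypes, *Drd1a* was lower by genotype (log2 differences −0.51 to −0.35) and so was *Drd2* (−0.55 to −0.44). *Drd3* ranged there from −0.12 to 0.47 and *Drd5* from −0.25 to 0.089. Without the mouse with the high choroid plexus markers, the genotype difference over all treatments was −0.50 for *Drd1a* and −0.51 for *Drd2*.

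*Drd5* came closest to the threshold on control ASO, with a log2 difference of −0.35 ± 0.13 between genotypes (standard error; limma's adjusted p = 0.0545), against 0.0025 on saline and 0.028 on *Htt* ASO. The adjusted p fell to 0.0498 when genes were filtered at a mean of 0.3 CPM instead. The highest *Drd5* value of all 35 mice, 3.60 CPM, came from the *Htt* +/+ mouse with the high choroid plexus markers. Without that mouse the log2 difference on control ASO was −0.27 (adjusted p = 0.177), and over all treatments −0.080 (adjusted p = 0.413). The response of *Drd5* to *Htt* ASO rather than control ASO was 0.37 higher on the log2 scale in *Htt* Q111/+ than in *Htt* +/+ mice (95% confidence interval 0.014 to 0.73), which failed the correction by limma over all genes (adjusted p = 0.999). *Drd5* lies on the chromosome of *Htt*, with RefSeq start sites 3.56 megabases apart.

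No treatment difference in a dopamine receptor transcript passed the test. Averaged over genotype, *Htt* ASO against control ASO gave a log2 difference of 0.0079 for *Drd1a* (95% confidence interval −0.062 to 0.078, adjusted p = 0.990) and 0.031 for *Drd2* (−0.037 to 0.099, adjusted p = 0.967). For *Drd3* the difference was −0.021 (−0.28 to 0.24) and for *Drd5* −0.050 (−0.23 to 0.13), or −0.012 without the mouse with the high choroid plexus markers. Among all tested genes 0.935% were called in this comparison. The intervals of *Drd1a* and *Drd2* stay within 95.8% to 105.5% and 97.5% to 107.1% of the control ASO level, while those of *Drd3* reach from 82.4% to 117.9%.

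Against saline, *Htt* ASO gave 0.043 for *Drd1a* (95% confidence interval −0.025 to 0.11), 0.031 for *Drd2* (−0.035 to 0.098), −0.065 for *Drd3* (−0.31 to 0.18) and 0.054 for *Drd5* (−0.12 to 0.23), where 1.47% of all genes were called. Control ASO against saline gave 0.035 for *Drd1a* (−0.035 to 0.10), 0.00040 for *Drd2* (−0.068 to 0.068), −0.044 for *Drd3* (−0.30 to 0.21) and 0.10 for *Drd5* (−0.077 to 0.29), or 0.066 without the mouse high in choroid plexus markers. In that comparison limma called 0% of all genes (0 genes, or 1357 before adjustment at 0.05), and edgeR and DESeq2 also called 0. These comparisons share the same control mice and are not independent of each other.

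Within *Htt* Q111/+ mice, *Htt* ASO against control ASO gave −0.0075 for *Drd1a* (95% confidence interval −0.10 to 0.089) and −0.023 for *Drd2* (−0.12 to 0.072). Against the gap between genotypes over all treatments, *Drd1a* moved by −1.52% of the way toward the *Htt* +/+ level (−21.3 to 18.2) and *Drd2* by −4.50% (−23.3 to 14.3). These ranges rescale the 95% confidence interval of the treatment difference and leave out the error of the gap. The gap itself includes the mice on *Htt* ASO. For *Drd3* and *Drd5* the genotype difference was too small for such a share. Of all tested genes, 0.357% were called in this comparison and 0.295% in the same one within *Htt* +/+ mice. There *Drd1a* gave 0.023 (−0.077 to 0.12), *Drd2* 0.085 (−0.013 to 0.18), *Drd3* −0.00058 (−0.38 to 0.38) and *Drd5* −0.24 (−0.49 to 0.018).

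No interaction of genotype with treatment passed the adjusted threshold for any receptor. For *Htt* ASO against control ASO it was −0.031 for *Drd1a* (95% confidence interval −0.17 to 0.11), −0.11 for *Drd2* (−0.24 to 0.028) and −0.041 for *Drd3* (−0.56 to 0.47). For *Htt* ASO against saline it was −0.062 for *Drd1a* (−0.20 to 0.074) and −0.024 for *Drd2* (−0.16 to 0.11). For control ASO against saline it was −0.031 for *Drd1a* (−0.17 to 0.11) and 0.083 for *Drd2* (−0.053 to 0.22). Limma called 0% of all genes in each of these 3 interactions, or 713, 973 and 1169 genes before adjustment at 0.05. EdgeR called 0 in each, and DESeq2 called 0, 0 and 1.

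**Figure D2:**
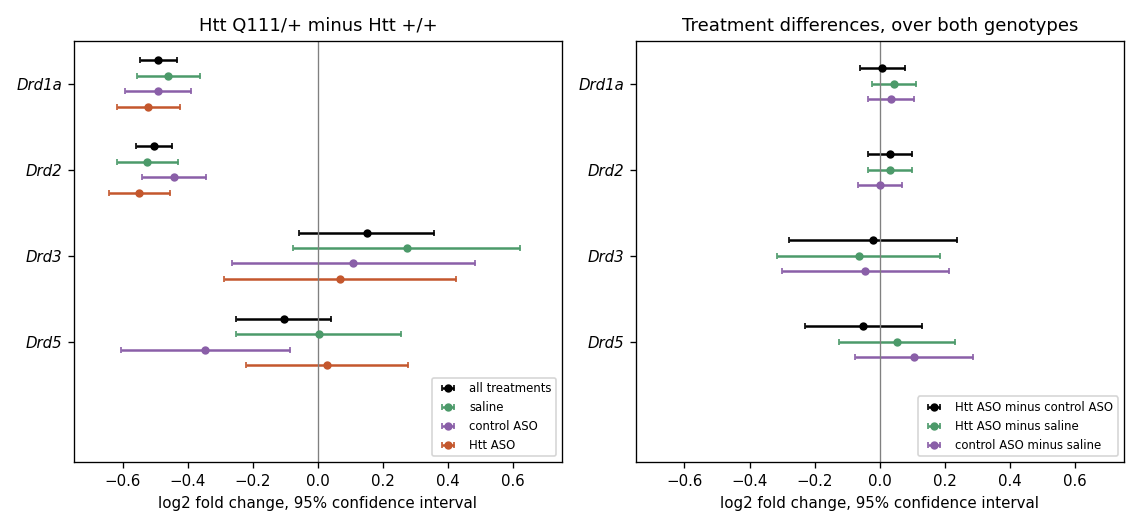
Log2 fold changes with 95% confidence intervals (limma) of the 4 tested receptors, by genotype over all treatments and within each (left) and between treatments over both genotypes (right), on the same horizontal scale. The genotype intervals of *Drd1a* and *Drd2* lie below 0 in all 4 settings (from −0.46 to −0.52 and from −0.44 to −0.55 within treatments), while all treatment intervals cross 0.

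To compare the direct with the indirect pathway receptor free of scaling between libraries, *Drd2* counts were divided by *Drd1a* counts in each mouse. The ratio was 0.582 ± 0.0309 (SD, n = 17) in *Htt* +/+ mice, from 0.535 to 0.633, and 0.575 ± 0.0314 (SD, n = 18) in *Htt* Q111/+ mice, from 0.522 to 0.653. The ranges overlapped. The ratio differed by −0.014 on the log2 scale, or −0.986% (95% confidence interval −4.57% to 2.74%, two-sided permutation of genotype within treatment, p = 0.598). *Drd1a* and *Drd2* thus differed in their genotype effect by less than the spread between mice. Within each of the 5 L numbers with both genotypes the log2 difference was negative, from −0.082 to −0.022. These L numbers were unevenly filled, with 2 to 4 mice a genotype.

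By exact two-sided permutation tests, the *Drd2* to *Drd1a* ratio differed between genotypes by −0.065 on saline (log2, p = 0.134), 0.049 on control ASO (p = 0.338) and −0.028 on *Htt* ASO (p = 0.558). The largest of the 6 treatment differences was that between control ASO and saline in *Htt* +/+ mice, at −0.092 (exact permutation p = 0.0649). The 5 mice on control ASO there had ratios of 0.5348, 0.5454, 0.5499, 0.5847 and 0.5849, and those on saline ranged from 0.560 to 0.633. None of the 9 exact tests passed after Benjamini-Hochberg adjustment, with adjusted p-values from 0.455 to 0.870.

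**Figure D3:**
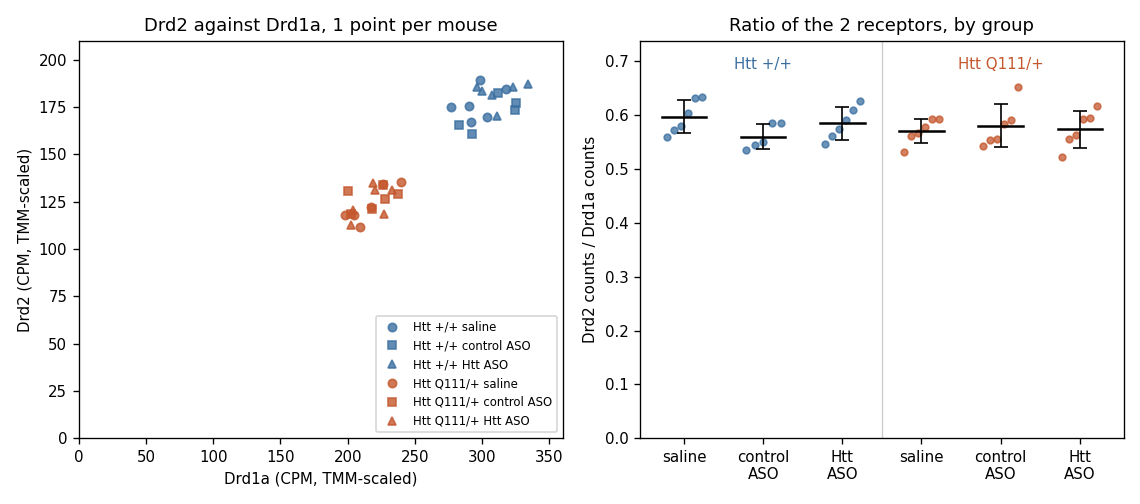
Left, *Drd2* against *Drd1a* (both in CPM, TMM-scaled), 1 point per mouse, with color for genotype and symbol for treatment. Right, *Drd2* counts divided by *Drd1a* counts by group, with mean (line) and SD (bars). The genotypes form 2 separate clouds on the left, while their ratios share a range, 0.535 to 0.633 in *Htt* +/+ and 0.522 to 0.653 in *Htt* Q111/+ mice.

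Ratios to the minor receptors, chosen after the values were seen, did differ. *Drd3* counts per *Drd1a* count were 57.0% higher in *Htt* Q111/+ mice (95% confidence interval 35.2% to 82.4%) and *Drd3* per *Drd2* 58.6% higher (35.8% to 85.2%). *Drd5* per *Drd1a* was 30.6% higher (15.7% to 47.4%) and *Drd5* per *Drd2* 31.9% higher (17.5% to 48.0%). Over the 9 gene pairs tested, the permutation p-values adjusted by Benjamini-Hochberg were 2.25e-05, 3.6e-05, 0.000283 and 0.00018 in that order. Over all treatments the minor receptors thus did not fall by the same factor as the major ones. The denominators of these ratios were already known to fall, so the p-values are not separate support. A smaller fall of *Drd5* lay within its own 95% confidence interval (log2 −0.25 to 0.042). On control ASO alone, the *Drd5* interval (−0.60 to −0.087) held the log2 differences of *Drd1a* (−0.49) and *Drd2* (−0.44). The ratios to the minor receptors were not tested within single treatments.

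Other genes of the 2 pathways did not all follow their receptor. Of 9 tested genes of direct pathway neurons, 2 were called lower, 4 higher and 3 not called, with a median log2 fold change of 0.053 (0.0037 over all tested genes). Against the 18% lower and 21.8% higher among all tested genes, the lower share was close to the background. The muscarinic receptor gene *Chrm4* fell by 0.44 on the log2 scale and *Sfxn1*, a mitochondrial carrier gene, fell by 0.29. The substance P precursor *Tac1* rose by 0.13, and the transcription factor genes *Isl1*, *Eya1* and *Zfp521* rose by 0.35, 0.30 and 0.13. The dynorphin precursor *Pdyn* was not called (−0.071). Of 7 tested genes of indirect pathway neurons, 5 were called lower, 0 higher and 2 not called, with a median of −0.56. The enkephalin precursor *Penk* (listed as *Penk1*) fell by 0.92, the adenosine receptor gene *Adora2a* fell by 0.71, the orphan receptor gene *Gpr6* fell by 0.56, *Upb1* fell by 0.78 and *Plxdc1* fell by 0.31. *Gpr52* was not analysed here.

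Each receptor was set against neuropeptide and receptor transcripts of its own pathway as a ratio within each mouse, also chosen after the values were seen. *Tac1* per *Drd1a* rose from 0.781 ± 0.0367 in *Htt* +/+ to 1.20 ± 0.0739 in *Htt* Q111/+ mice, and no mice overlapped. *Chrm4* per *Drd1a* was 0.170 ± 0.0160 and 0.175 ± 0.0124, a difference of 3.24% (95% confidence interval −2.37% to 9.17%, adjusted permutation p = 0.301). *Penk1* per *Drd2* fell from 9.05 ± 0.377 to 6.76 ± 0.343, and *Adora2a* per *Drd2* from 1.57 ± 0.0903 to 1.36 ± 0.0640 (SD, n = 17 and 18). The *Tac1*, *Penk1* and *Adora2a* ratios each had an adjusted permutation p of 2.25e-05. Their unadjusted p of 1e-05 is the smallest these resamples can give. The genotype differences of the genes in these ratios were already known, so the p-values are not separate support.

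Among 10 genes that couple D1-like receptors to cyclic AMP, 5 were called lower, 3 higher and 2 not called, against 18% lower and 21.8% higher over all genes. *Adcy5*, the main striatal adenylyl cyclase, fell by 0.57, *Ppp1r1b*, which encodes the protein kinase A target DARPP-32, fell by 0.48, and *Gnal*, the striatal stimulatory G protein subunit, fell by 0.17. The protein kinase A catalytic subunits *Prkaca* and *Prkacb* rose by 0.086 and 0.087. Among 10 genes of inhibitory coupling, 3 were called lower, 5 higher and 2 not called, beside the same shares of all genes. *Rgs9* and *Rgs4*, which speed the shut-off of inhibitory G proteins, fell by 0.52 and 0.55, *Gnao1* fell by 0.13, and the potassium channel subunit *Kcnj3* rose by 0.29. With L number as a covariate, 3 genes of this list were called higher.

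Among 6 receptor kinases and arrestins, which desensitise receptors, 2 were lower (*Grk5*, −0.12, and *Arrb1*, −0.098) and 2 higher (*Grk2*, listed as *Adrbk1*, 0.12, and *Grk6*, 0.090). Of 7 receptor partners, 2 were lower, *Ppp1r9b* (spinophilin, −0.33) and *Epb41l1* (−0.15), and 2 higher, *Ncs1* (0.055) and *Gipc1* (0.11), but with L number as a covariate 0 were called higher. Both lists stand against 18% lower and 21.8% higher among all tested genes. The median of the partners was −0.015 and changed sign, to 0.024, with library totals in place of TMM. Of 7 tested genes of dopamine synthesis, storage and breakdown, *Th* was lower (−0.22, adjusted p = 0.0073) and *Ddc* higher (0.14, adjusted p = 0.045, limma). With L number as a covariate 0 genes of this list were called higher, and with library totals 2. *Slc6a3*, the dopamine transporter of midbrain neurons, lay at 0.1205 CPM in *Htt* +/+ and 0.118 CPM in *Htt* Q111/+ mice and was not tested. For *Htt* ASO against control ASO, 1 gene in all 7 lists was called, *Ptprm* of the indirect pathway list (log2 difference −0.13, adjusted p = 0.0072, limma). Over all tested genes that comparison called 0.935%.

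**Figure D4:**
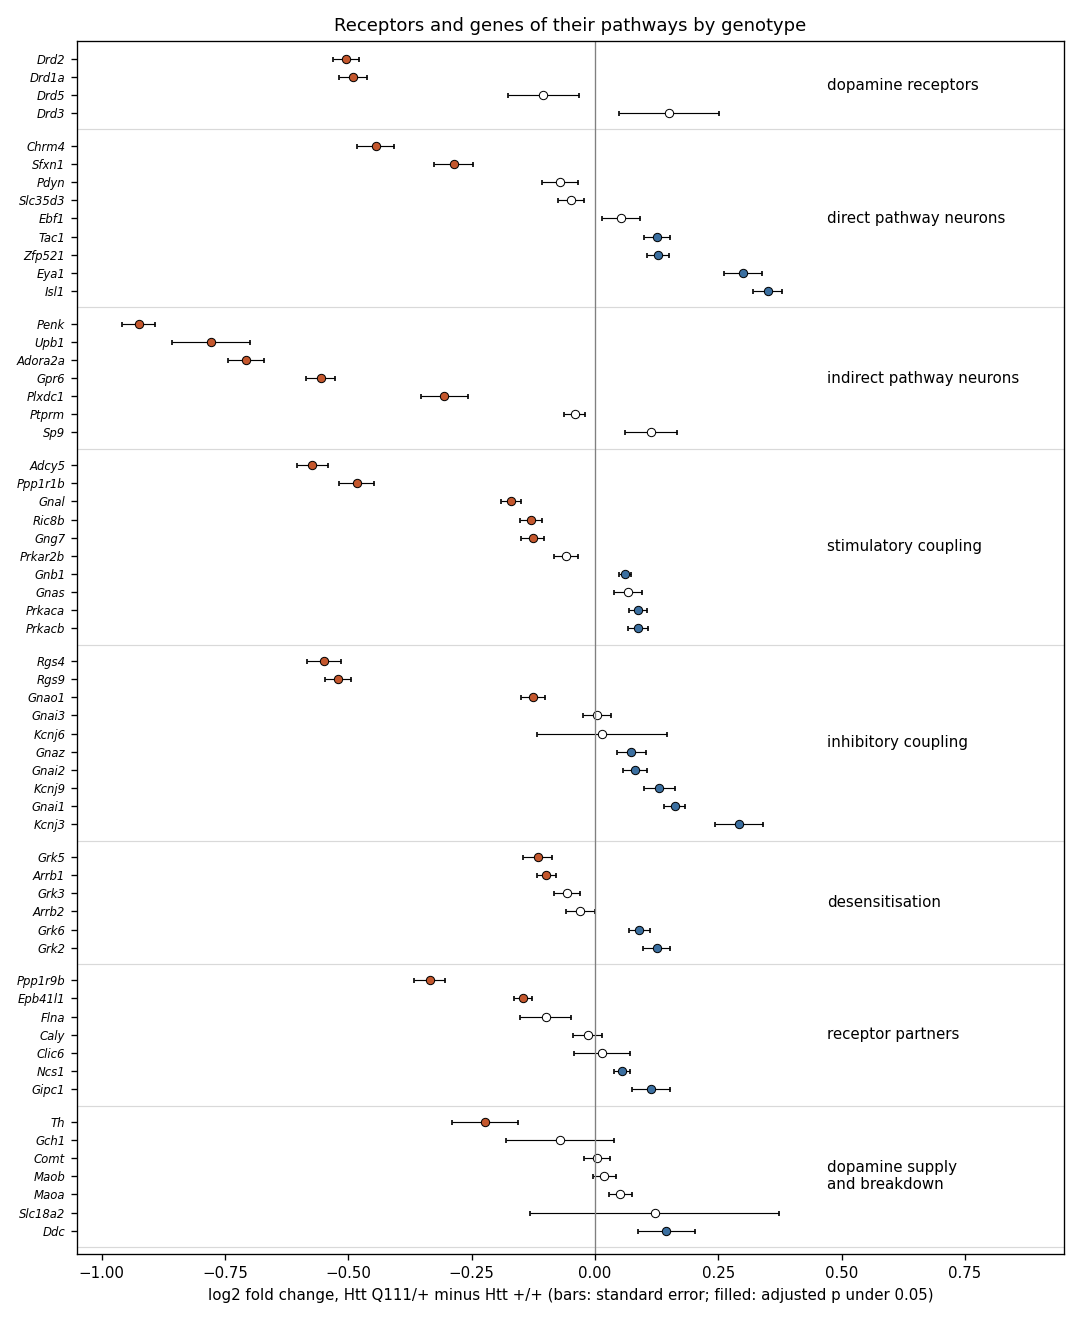
Log2 fold change by genotype (*Htt* Q111/+ minus *Htt* +/+, bars: standard error) of the 4 tested receptors and of the tested genes of 7 pathway lists, filled where the adjusted p (limma) passed 0.05. The indirect pathway list holds 5 genes called lower and none called higher, while the direct pathway list holds 2 lower and 4 higher beside a *Drd1a* at −0.49.

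Cell type markers were measured beside the receptors. All 5 markers of medium spiny neurons were called lower in *Htt* Q111/+ mice, and *Ppp1r1b* and *Rgs9* among them also stand in the lists above. Summed, the 5 ranged from 3606 to 4595.5 CPM in *Htt* +/+ mice and from 2811 to 3323 CPM in *Htt* Q111/+ mice, without overlap. In bulk tissue, fewer cells of a type and less RNA per cell cannot be told apart, and the part of this shift in the fall of *Drd1a* and *Drd2* was not tested. Other genes of medium spiny neurons, those of the 2 pathway lists above, did not all fall. Of 9 direct pathway genes 2 were lower and 4 higher (*Tac1*, *Isl1*, *Eya1* and *Zfp521*). Of 7 indirect pathway genes 5 were lower and 0 higher. Of 4 tested markers of cholinergic interneurons, which also make *Drd2* and *Drd5*, 0 were called by limma, with sums of 77.1 to 107 CPM in *Htt* +/+ and 78.2 to 106 CPM in *Htt* Q111/+ mice. Markers of cortical excitatory neurons varied widely in both genotypes, from 7.52 to 70.3 CPM and from 6.62 to 72.3 CPM summed, with 0 of 5 called. Of the other lists reported, 1 of 5 markers was lower for other interneurons (*Nos1*), 2 of 5 for astrocytes, 3 of 5 for microglia, 2 of 3 for endothelium and 0 of 3 for choroid plexus, and none was higher. All these marker counts stand beside 18% called lower and 21.8% called higher over all tested genes. *Th*, the only tested one of 2 markers of midbrain dopamine neurons, was lower, at 6.07 ± 0.691 CPM (SD, n = 17) against 5.23 ± 0.832 CPM (SD, n = 18). The other marker, *Slc6a3*, lay at only 0.1205 and 0.118 CPM. Which cells of the dissected striatum the *Th* transcript came from was not tested.

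Across mice, residuals of log2 CPM after removal of group means were correlated between receptors within each genotype. *Drd1a* and *Drd2* gave r = 0.62 and rho = 0.57 over 18 *Htt* Q111/+ mice (permutation p = 0.0102 and 0.0206, adjusted over 6 relations 0.0612 and 0.124), and r was 0.67 without the 2 mice farthest from the median. Over 17 *Htt* +/+ mice they gave r = 0.49 and rho = 0.53 (permutation p = 0.077 and 0.0506, adjusted 0.231 and 0.152), and r was 0.38 without the 2 farthest mice. Neither passed the correction. No relation passed for *Drd3* with *Drd1a* (r = 0.072 in *Htt* +/+ and 0.18 in *Htt* Q111/+ mice) or with *Drd2* (0.059 and −0.15), with adjusted permutation p-values of 0.821 in all 4 cases.

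The genes whose residuals were most like those of each receptor over all 35 mice are given as a description, out of 15089 genes compared. For *Drd1a* they were *Arpp21* (r = 0.89), *Pde8b* (0.88), *Kcna4* (0.86), *Rasgrp1* (0.84) and *Slmap* (0.83). For *Drd2* they were *Gng7* (r = 0.88), *Adcy5* (0.85), *Tmem90a* (0.84), *Sh2d5* (0.84) and *Pde1b* (0.84). The thousandth most alike gene still had r of 0.46 for either receptor, so positive correlations reached well beyond the genes named. What these genes share was not tested. For *Drd5* the leading gene was *Sec11c* (r = 0.71), followed by *Arsg*, *Trip10*, *Qdpr* and *Serpinb1a* (0.65 to 0.68). For *Drd3*, at 44.9 counts a mouse, it was *Ctbs* (r = 0.63), followed by *Stx17*, *Tnfaip8l3*, *Setdb2* and *1110001D15Rik* (0.61 to 0.63).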

How the data were processed

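Striatal mRNA of 35 mice was sequenced, 1 library per mouse. The authors aligned 50-base paired reads from stranded libraries to the mouse transcriptome (MGSCv37) with Bowtie 0.12.9 and quantified genes with RSEM 1.1.18. The deposited values are expected counts per gene, not scaled for library size (55.6% are whole numbers). Filters on reads are not given in the sources used here.

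The treatment labelled ASO1 was taken as *Htt* ASO, the treatment left over in the labels. Of 22099 genes, 17639 passed filterByExpr (minimum count 10, minimum total 15). Library sizes were scaled by TMM in edgeR 4.0.16, and voom and limma 3.58.1 were run in R 4.3.3 with a mean per group over all 35 mice (29 residual degrees of freedom), with Benjamini-Hochberg adjustment over all tested genes. The alternatives were the quasi-likelihood test of edgeR and DESeq2 1.42.0, both on rounded counts, library totals, other filters, L number, and leaving out mice. CPM here use TMM-scaled totals, and a prior count of 2 was added for log2 CPM. Receptor ratios were tested by permutation (100000 resamples within treatment, or exact) with scipy, and their intervals come from a linear model with a mean per group.

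The named genes were the 5 receptors, 7 pathway lists, marker lists, and the 5 genes most correlated with each receptor (mean of at least 1 CPM). Members and lists were chosen with earlier results of these data known. One marker list is not reported here. Where an animal's relation to others is not labelled, p-values measure the spread between these mice. No library was a duplicate (85 pairs within groups, chi-square per degree of freedom 3.57 to 16.5). Code was tested on simulated data. Promoter windows are from RefSeq (GRCm38.p6) and transcript lengths from GENCODE M21, which differ from the authors' build and were matched by symbol.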

Additional observations from a re-analysis of the deposited data

Results flagged for a closer look

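Of 36 combinations of 6 measures (the 5 receptors and the *Drd2* to *Drd1a* ratio) with the 6 groups, 2 held a mouse that lay far from the rest of its group by Dixon's ratio, and chance flags about 1 in 20. In *Htt* +/+ mice on *Htt* ASO, the mouse with the least *Drd2* had 170.3 CPM where the next had 181.3, a gap of 0.645 of the range of the group (critical value 0.625 for 6 mice). It still lay above every *Htt* Q111/+ mouse. In *Htt* Q111/+ mice on control ASO, the mouse with the least *Drd3* had 0.930 CPM where the next had 1.28, a gap of 0.706 of the range. No interaction of genotype with treatment passed the adjusted threshold for a receptor.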

How the results depend on the processing

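Calls for *Drd1a* and *Drd2* by genotype, over all treatments and within each, held under every alternative tried, as did the absence of a call in the *Drd2* to *Drd1a* ratio and in the treatment comparisons of the 4 receptors over both genotypes and, for *Htt* ASO against control ASO alone, within each genotype and in the interaction. Other treatment comparisons within a genotype and other interactions were not recomputed for the receptors. With mean differences within single L numbers included, which were not tested, the log2 difference of *Drd1a* by genotype lay between −0.51 and −0.35. That of *Drd2* lay between −0.55 and −0.44, and that of the ratio between −0.082 and −0.0044. Both ends for *Drd1a* and for *Drd2* came from single L numbers and not from refits of the test. One call was gained, *Drd5* by genotype on control ASO, with a filter at a mean of 0.3 CPM (−0.35, adjusted p = 0.0498, limma) and in 7 of 35 fits without a mouse (range −0.41 to −0.26, adjusted p from 0.0332 to 0.177). With library totals in place of TMM the median of all genes moved from 0.0037 to 0.043 by genotype, the genes called went from 7024 to 8089 and those called lower among them from 3182 to 2259, and 1 gene of indirect pathway neurons was called higher. Genes called higher went from 1 to 2 for dopamine supply and breakdown with library totals, and with L number as a covariate from 1 to 0 in that list, from 2 to 0 for receptor partners and from 5 to 3 for inhibitory coupling.

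Smaller shifts in the lists were these. With L number as a covariate, genes called lower went from 2 to 3 for direct and from 5 to 6 for indirect pathway neurons. For stimulatory coupling, genes called lower went from 5 to 6 with edgeR, and genes called higher from 3 to 4 with library totals. The other changes in the 4 receptors were of sign, in differences not called under these settings, and their cause was not tested. By genotype, *Drd3* was −0.12 within L number 6, *Drd5* 0.083 and 0.089 within L numbers 3 and 5, and *Drd5* on saline −0.0064 with edgeR, −0.0082 with DESeq2, −7.7e-05 without the left hemistriatum and −0.014 without the L number of 1 genotype. For *Htt* ASO against control ASO, that last setting gave −0.0029 for *Drd1a* and 0.0029 for *Drd3* (0.0020 with edgeR, 0.0028 with DESeq2). In *Htt* Q111/+ mice *Drd1a* was 0.011 with library totals and 0.0065 with L number as a covariate, and *Drd3* was 0.0095 without the L number of 1 genotype. In *Htt* +/+ mice *Drd3* was 0.045 with edgeR, 0.047 with DESeq2, 0.00019 with no filter and 0.00046 with the 0.3 CPM filter. For control ASO against saline, *Drd2* was −0.00093 with edgeR and −0.0019 with library totals, and *Drd3* 0.010 with L number. The *Drd3* interaction was 0.012 with L number, 0.021 without the left hemistriatum and 0.013 without the L number of 1 genotype.

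Leaving out each mouse in turn changed the sign of these. For *Htt* ASO against control ASO, *Drd1a* ranged from −0.0069 to 0.020 (−0.032 to 0.017 in *Htt* Q111/+ and −0.0063 to 0.044 in *Htt* +/+ mice), *Drd2* from −0.046 to 0.0063 in *Htt* Q111/+ mice, and *Drd3* from −0.083 to 0.047 (−0.14 to 0.035 and −0.12 to 0.13). For control ASO against saline, *Drd2* ranged from −0.014 to 0.015 and *Drd3* from −0.076 to 0.018, and *Htt* ASO against saline gave *Drd3* from −0.11 to 0.0026. By genotype, *Drd3* ranged from −0.067 to 0.16 on *Htt* ASO and from −0.015 to 0.21 on control ASO, and *Drd5* from −0.046 to 0.080 on *Htt* ASO and from −0.056 to 0.085 on saline. The *Drd3* interaction ranged from −0.18 to 0.083.

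No paired analysis was possible because the labels name mice and not pairs, and replicate numbers only follow accession order. At 44.9 and 89.6 counts a mouse, *Drd3* and *Drd5* had wider intervals than *Drd1a* and *Drd2*, and *Drd4* was tested only without a filter.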
